A study of Mus musculus with 8 samples.

Results

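Genes of the amino acid stress response governed by the transcription factor ATF4 were followed in early T-lineage progenitors with and without Tcf7 and Lef1. They were chosen by symbol: Atf4, Atf5, Ddit3, Trib3, Asns, Chac1, Sesn2, Psat1, Phgdh and Slc7a11. All 10 were found among the 24538 genes of the RNA tables, and all 10 had a mean of at least 1 TPM (a level scaled to transcript length and library total), the minimum for testing that 13228 genes reached. LSK cells, the bone marrow fraction that holds stem cells and multipotent progenitors, came from mice carrying CreER, a Cre recombinase activated by tamoxifen, with either wild-type Tcf7 and Lef1 (control) or floxed Tcf7 and floxed Lef1 (knockout). Cells of both groups were cultured on OP9-DL1 stroma, which presents the Notch ligand DL1. They received 4-OH tamoxifen on days 3 to 5 and were sorted on day 7 as Lin-CD8-CD4-CD44hiCD25- ckit+ cells, the first double-negative stage (DN1). RNA-seq and ATAC-seq, which marks open chromatin by transposase insertion, each had 2 control and 2 knockout libraries. The sources used here do not give strain, age, the promoter of CreER or the animals or cultures behind each replicate, so p-values measure only the spread between these libraries, which may be technical.

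ATF4 is the effector of the integrated stress response. Kinases that sense missing amino acids, unfolded protein in the endoplasmic reticulum (ER), haem lack or double-stranded RNA phosphorylate the translation factor eIF2, which lowers protein synthesis overall while favouring translation of ATF4 messenger RNA. ATF4 protein then binds C/EBP-ATF composite elements, often with a C/EBP partner, and switches on genes that make, import and charge amino acids, together with feedback and death-linked regulators such as CHOP (Ddit3) and Trib3. Because ATF4 is controlled largely at translation, RNA levels of Atf4 do not measure the protein.

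The composite element was searched as TGATGNAA, TGGTGCAA and TGACGCAA on both strands in the 250 bases before each start, counted from the RefSeq start in promoters of build GRCm38.p6, the assembly behind mm10. The letters were chosen with these promoters in view. All 10 genes matched a promoter entry, and Atf5 and Psat1 have 2 each. At least 1 of the 3 patterns was found before the first listed start of Asns, Psat1, Trib3, Chac1 and Slc7a11, which is 5 of 10 genes, and in 4.3% of all 32851 promoter windows. TGATGNAA alone occurred in 3.45%, TGGTGCAA in 0.463% and TGACGCAA in 0.438% of windows. These 5 promoters are shown because their RNA went different ways, with matches in capitals, 5′ to 3′ on the gene's strand, ending at the base before the start.
Asns: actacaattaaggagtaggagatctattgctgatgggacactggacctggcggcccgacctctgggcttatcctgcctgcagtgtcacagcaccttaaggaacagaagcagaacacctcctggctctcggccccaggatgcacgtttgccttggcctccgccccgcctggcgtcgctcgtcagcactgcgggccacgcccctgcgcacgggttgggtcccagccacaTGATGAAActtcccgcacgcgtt
Psat1: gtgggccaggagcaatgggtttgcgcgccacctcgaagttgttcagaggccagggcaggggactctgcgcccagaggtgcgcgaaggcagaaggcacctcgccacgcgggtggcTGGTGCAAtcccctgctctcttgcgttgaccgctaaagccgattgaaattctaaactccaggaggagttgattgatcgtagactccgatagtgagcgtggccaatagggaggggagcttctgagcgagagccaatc
Trib3: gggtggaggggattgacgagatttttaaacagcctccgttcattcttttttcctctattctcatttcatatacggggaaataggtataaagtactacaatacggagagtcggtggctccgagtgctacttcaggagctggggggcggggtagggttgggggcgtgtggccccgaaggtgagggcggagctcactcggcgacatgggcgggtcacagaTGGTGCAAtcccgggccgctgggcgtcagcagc
Chac1: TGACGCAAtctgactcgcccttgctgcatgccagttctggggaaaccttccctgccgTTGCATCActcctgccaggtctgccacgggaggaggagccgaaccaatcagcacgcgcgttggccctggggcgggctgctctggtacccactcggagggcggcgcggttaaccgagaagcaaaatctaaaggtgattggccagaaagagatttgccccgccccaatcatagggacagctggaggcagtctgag
Slc7a11: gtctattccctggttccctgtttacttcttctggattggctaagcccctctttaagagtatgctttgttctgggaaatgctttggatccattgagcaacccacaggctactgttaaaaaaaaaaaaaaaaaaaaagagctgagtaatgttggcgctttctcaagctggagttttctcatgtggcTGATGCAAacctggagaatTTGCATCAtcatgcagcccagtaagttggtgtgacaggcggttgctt

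The windows lie at chr6:7693210-7693459 (minus strand) for Asns, chr19:15925060-15925309 (minus) for Psat1, chr2:152344061-152344310 (minus) for Trib3, chr2:119350992-119351241 (plus) for Chac1 and chr3:50443614-50443863 (minus) for Slc7a11. Positions count from the RefSeq start, with the base before it as -1. That start is also the one in the RNA tables for these genes except Asns, whose RefSeq start lies 27 bases upstream of the table's. The Asns match TGATGAAA spans -23 to -16 and the Psat1 match TGGTGCAA spans -136 to -129. Trib3 carries the same TGGTGCAA at -33 to -26. Chac1 carries TGACGCAA at -250 to -243 and, on the other strand, TGATGCAA at -193 to -186. In Slc7a11, TGATGCAA lies at -66 to -59 and again, on the other strand, at -47 to -40. Atf4, Atf5, Sesn2 and Phgdh held none of the 3 patterns in their windows, and neither did Ddit3, whose window (chr10:127290543-127290792, plus strand) is shown because its RNA had the deepest fall of the 10. The capitals in it mark TGACTCA, the AP-1 motif, at -242 to -236, a 7-base pattern found in 4.46% of all windows and in no window of the other 9 genes.
Ddit3: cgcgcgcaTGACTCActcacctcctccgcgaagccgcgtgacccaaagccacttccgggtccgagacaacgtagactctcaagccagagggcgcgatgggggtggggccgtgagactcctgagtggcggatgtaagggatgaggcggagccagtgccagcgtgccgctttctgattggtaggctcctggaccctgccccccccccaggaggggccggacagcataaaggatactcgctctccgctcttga

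The TCF/LEF letters CTTTGAT (3.21% of all windows) and CTTTGAA (4.46%), searched on both strands, had no match in any window of the 10 genes. A match or its absence describes these letters in these windows only.

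RNA was compared between genotypes to ask what loss of the factors changed at this stage. The libraries matched their labels at Tcf7, at 518 and 510 TPM in control and 13.2 and 12.4 TPM in knockout, whereas Lef1 stood at 1.10 to 1.66 TPM in all 4 and checks nothing. Kit, a sort marker, stood at 251 and 238 TPM in control and 157 TPM in both knockout libraries, and was called lower (limma adjusted p = 0.00067). Cd44, another, stood at 94.0 and 109 TPM in control and 103 and 105 TPM in knockout, without a call. Cd4 was at or below 0.318 TPM in all 4 libraries. Il2ra, the gene of CD25, which the sorted cells were to lack at the surface, stood at 136 and 133 TPM in control. In knockout Il2ra stood at 0.658 and 0.393 TPM (limma adjusted p = 6.1e-05). The groups thus differed in RNA of 2 genes of the sort, Kit and Il2ra. Il2ra also counts among the T-lineage markers below. Over all 13228 genes, 25.2% were called higher and 14.7% lower in knockout (limma, adjusted p under 0.05), with a median log2 change of 0.093. After median-ratio scaling the split was 2451 higher and 2512 lower, against 3331 and 1940 as deposited. Dll1, the gene of the Notch ligand that the stroma presents, stood at 236 and 241 TPM in control. In knockout it stood at 671 and 534 TPM (limma adjusted p = 0.00091). Marker sets of other cells moved as well. The summed level of 15 stromal markers was 914 and 938 TPM in control and 1948 and 1637 TPM in knockout; 11 of 13 tested rose, while Dcn was at 0 in all 4 libraries and Lum in all but knockout 2. The sum of 11 mast cell markers went from 254 and 246 TPM to 568 and 583 TPM (10 rose, 1 fell). The sum of 10 T-lineage markers went from 513 and 515 TPM to 52.5 and 53.0 TPM (9 of 9 tested fell, with Cd3e at 0 in both knockout libraries). In bulk libraries fewer cells of a type and less RNA per cell cannot be told apart, and the part of these shifts in the results that follow was not tested.

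The 3 genes that fell were regulators of the response (Ddit3, Trib3 and Atf4), and the 4 that rose were the amino acid enzymes Psat1, Asns and Phgdh together with Sesn2. Chac1, Atf5 and Slc7a11 did not pass the test. The 7 called genes of 10 stand beside 39.8% of all genes called in either direction, the 4 rises beside 25.2% and the 3 falls beside 14.7%. The medians of log2 change were 0.30 for the 10 genes and 0.093 for all genes tested. Both knockout libraries lay above both control libraries for 6 of the 10 genes, beside 44.4% of all genes, and below them for 3, beside 29.0%. The same 4 rises and 3 falls were called after quantile normalization, after median-ratio scaling and after rescaling without the abundant noncoding RNA Rpph1. With 1 library left out, 3 to 4 genes were called higher and 1 to 2 lower (1 lower without control replicate 1, control replicate 2 or knockout replicate 2), and 2 were called lower without the filter on low values, with a minimum mean of 5 TPM, or without the intensity trend.

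**Figure D1:**
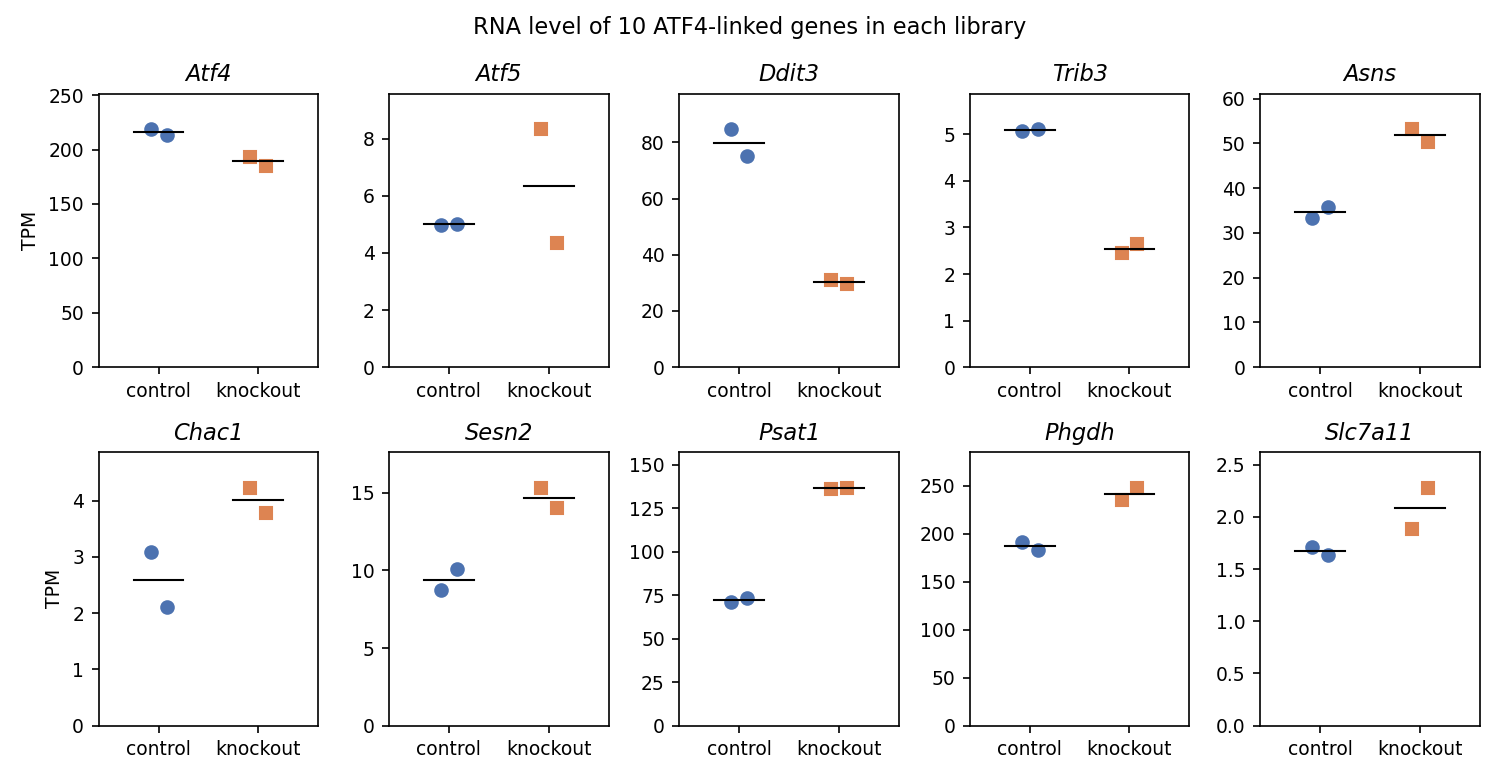
RNA level (TPM, linear axes from 0) of the 10 genes in each library; circles are control and squares knockout libraries, and bars are group means (n = 2). The groups overlap only for Atf5, whose knockout libraries stood at 8.34 and 4.35 TPM around the control values.

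Atf4 (chr15:80255184-80257545, mm10), the central factor, stood at 219 and 214 TPM in control and at 193 and 185 TPM in knockout. Both knockout libraries were below both control libraries, by a small margin. The mean went from 216 ± 3.5 TPM (SD, n = 2) to 189 ± 6.2 TPM, a log2 change of -0.19 (95% interval -0.30 to -0.08, limma adjusted p = 0.020). The call was lost without control replicate 1 (0.098), control replicate 2 (0.071) or knockout replicate 2 (0.077), and without the intensity trend in the spread (0.12); over all alternatives it ran from 0.0034 to 0.12. Atf4 kept a lower level in knockout under all 13 alternatives, with changes between -0.38 and -0.16.

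Ddit3 (chr10:127290793-127296288) encodes CHOP, a C/EBP-family factor that ATF4 induces and that is linked to cell death under lasting stress. It stood at 84.7 and 75.2 TPM in control against 31.2 and 29.7 TPM in knockout, so the groups lay far apart. The fall was 2.62-fold, from 79.9 ± 6.8 to 30.5 ± 1.04 TPM (log2 change -1.36, SE 0.081, limma adjusted p = 0.00048). It was called under all 13 alternatives (adjusted p of 0.00035 to 0.013). The last 3′ bases of Ddit3 overlap the end of Mars, a methionyl-tRNA synthetase gene on the other strand that rose, and the sources used here do not state whether quantification used strand.

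Trib3 (chr2:152337425-152344060), a pseudokinase that ATF4 and CHOP induce and that feeds back on ATF4, was low in all libraries. It stood at 5.08 and 5.11 TPM in control and at 2.45 and 2.64 TPM in knockout, a 2.0-fold difference in means (log2 change -0.78, SE 0.18, limma adjusted p = 0.021). The groups did not overlap, but the call was lost without any 1 of the 4 libraries (adjusted p = 0.085 without control replicate 1, 0.087 without control replicate 2, 0.077 without knockout replicate 1 and 0.061 without knockout replicate 2). With low values left unfiltered it was lost too (0.055; 0.014 to 0.087 over all alternatives).

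Atf5 (chr7:44812256-44816658), a relative of ATF4 under like translational control, gave no call. Its control libraries agreed at 4.99 and 5.02 TPM, while the knockout libraries stood at 8.34 and 4.35 TPM, on either side of control. The log2 change was 0.23 with an interval from -0.49 to 0.95 (limma adjusted p = 0.55), so a rise or fall within that range was not resolved. Without knockout replicate 1 the change was -0.17. Atf5 overlaps Nup62, a nuclear pore gene on the other strand that stood at 61.1 and 59.5 TPM in control and 75.5 and 70.7 TPM in knockout, so reads at the shared 5′ end cannot be assigned without strand.

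Among the biosynthetic genes, Psat1 (chr19:15905123-15925059), the aminotransferase of the second step of serine synthesis, had the largest rise. It stood at 70.9 and 73.3 TPM in control and at 136 and 137 TPM in knockout, with replicates close together in both groups. The means of 72.1 ± 1.7 and 136.5 ± 0.37 TPM differed 1.89-fold (log2 change 0.91, SE 0.048, limma adjusted p = 0.00038). Phgdh (chr3:98313171-98339969), the dehydrogenase of the first step of serine synthesis, was among the most abundant of the 10. Its libraries read 191 and 183 TPM in control and 235 and 248 TPM in knockout, a 1.29-fold rise with no overlap (log2 change 0.37, SE 0.048, limma adjusted p = 0.0035). Both enzymes were called under all 13 alternatives, and the smallest Phgdh change was 0.20 after quantile normalization.

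Asns (chr6:7675171-7693182), asparagine synthetase and a textbook ATF4 target, stood at 33.3 and 35.9 TPM in control and at 53.2 and 50.4 TPM in knockout. The 1.5-fold rise (log2 change 0.57, SE 0.074, limma adjusted p = 0.0035) was called under all 13 alternatives. Sesn2 (chr4:132492807-132510456), a leucine-binding inhibitor of mTORC1 signalling that p53 also induces, stood at 8.72 and 10.1 TPM in control and at 15.3 and 14.0 TPM in knockout. The groups did not overlap, and the rise was 1.56-fold (log2 change 0.59, SE 0.13, limma adjusted p = 0.017). Its call was lost without control replicate 1 (0.085), knockout replicate 1 (0.089) or knockout replicate 2 (0.054), within 0.015 to 0.089 over all alternatives.

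The glutathione-linked genes Chac1 and Slc7a11 did not pass, at low levels. Chac1 (chr2:119351242-119354327), an enzyme that breaks down glutathione, stood at 3.09 and 2.11 TPM in control and at 4.23 and 3.78 TPM in knockout. Its log2 change was 0.49 with an interval from -0.07 to 1.05 (limma adjusted p = 0.14). Slc7a11 (chr3:50364936-50443613), the cystine importer that feeds glutathione synthesis, stood at 1.72 and 1.63 TPM in control and at 1.89 and 2.28 TPM in knockout, a log2 change of 0.20 with an interval from -0.37 to 0.77 (limma adjusted p = 0.51). For both, the knockout libraries lay above the control libraries by less than the test could resolve.

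**Figure D2:**
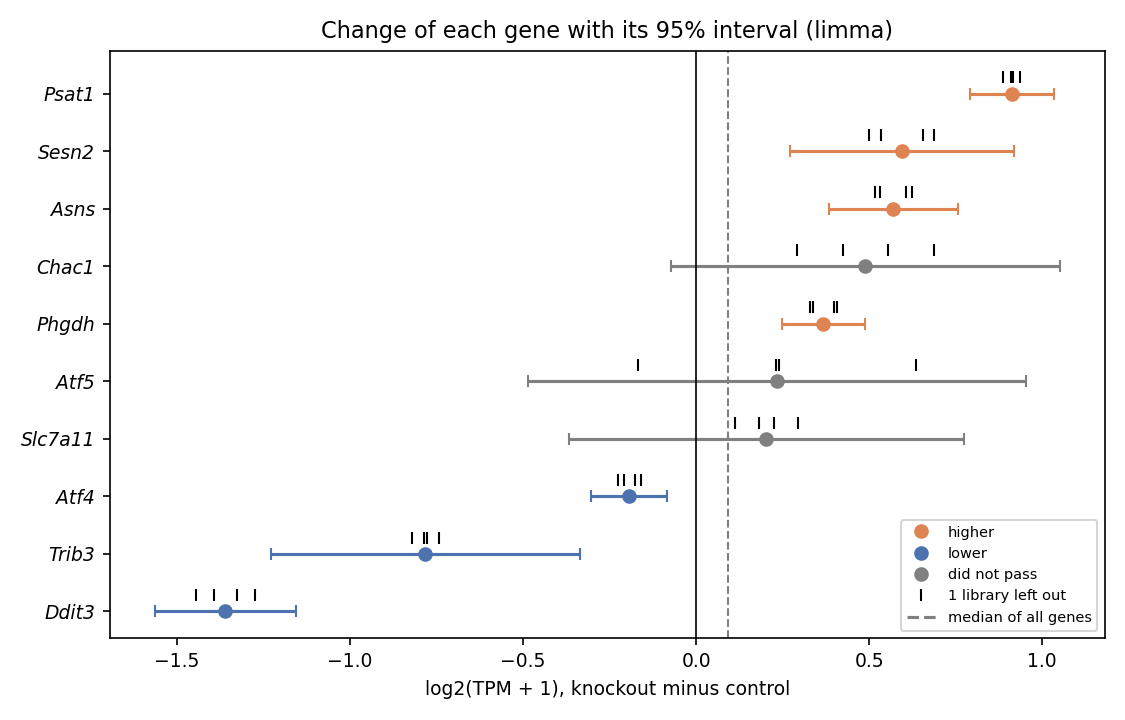
Log2(TPM + 1) in knockout minus control for each gene with its 95% interval from limma; ticks above each point are the changes with 1 library left out, and the dashed line is the median of all genes (0.093). Ddit3, Trib3 and Atf4 lie to the left of 0, Psat1, Sesn2, Asns and Phgdh to the right, and only the ticks of Atf5 fall on both sides of 0.

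TPM is scaled to length, so levels compare between genes. In control the order was Atf4, Phgdh, Ddit3, Psat1, Asns, Sesn2, Trib3, Atf5, Chac1 and Slc7a11, from 216 to 1.67 TPM in means. Neighbours did not overlap, though Ddit3 (79.9 ± 6.8 TPM) and Psat1 (72.1 ± 1.7 TPM) lay close, as did Trib3 (5.09 ± 0.022 TPM) and Atf5 (5.01 ± 0.022 TPM). In knockout Phgdh came first at 241 ± 9.2 TPM, ahead of Atf4 at 189 ± 6.2 TPM, and Ddit3 stood at 30.5 TPM, below Psat1 and Asns. Atf5 (6.34 ± 2.8 TPM) and Chac1 (4.01 ± 0.32 TPM), neighbours in that order, did not differ beyond their spread. The summed level of the 10 genes was 622 and 605 TPM in control and 681 and 676 TPM in knockout.

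The genes upstream of ATF4 showed no call among the kinases. Eif2ak4 (GCN2, the sensor of uncharged tRNA) stood at 28.6 ± 0.40 and 26.0 ± 0.43 TPM in control and knockout, and Eif2ak3 (PERK, the ER sensor) at 22.3 ± 0.28 and 23.4 ± 0.76 TPM. Eif2ak1 (HRI, the haem sensor) stood at 51.1 ± 0.62 and 56.4 ± 4.3 TPM, and Eif2ak2 (PKR, the double-stranded RNA sensor) at 32.7 ± 0.24 and 36.3 ± 5.4 TPM. The limma adjusted p of the 4 kinases was 0.21, 0.56, 0.19 and 0.37, in the order given. The phosphatase subunit Ppp1r15a (GADD34), which reverses eIF2 phosphorylation and is itself induced in the response, fell 4.08-fold, from 148 and 158 TPM to 37.8 and 37.1 TPM (log2 change -2.0, limma adjusted p = 0.00013). Its constitutive counterpart Ppp1r15b stood at 53.4 ± 1.7 and 60.3 ± 1.6 TPM and did not pass (adjusted p = 0.073). Of 14 genes of eIF2 control, 6 rose, 1 fell and 7 had no call, beside 25.2% higher and 14.7% lower over all genes; their median log2 change was 0.17. After the scaling alternatives 4 to 5 rose, and 4 rose without any 1 of the 4 libraries. Eif2b3, a subunit of the exchange factor eIF2B, rose from 15.5 ± 1.1 to 32.1 ± 2.1 TPM, and Eif2s1, the phosphorylated subunit of eIF2, from 83.0 ± 3.6 to 132.6 ± 0.16 TPM.

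Among 10 bZIP partners and relatives of ATF4, 3 rose, 1 fell and 6 had no call, around a median log2 change of -0.15. These shares, 30% and 10%, lie near the 25.2% and 14.7% of all genes. Scaling turned this split: with quantile normalization, median-ratio scaling or rescaling without Rpph1, 0 or 1 rose and 3 fell. With 1 library left out, 0 rose, or 1 without control replicate 2, and 1 to 2 fell. Atf3, a stress-induced factor downstream of ATF4, fell 21.3-fold, from 24.6 and 31.0 TPM to 1.51 and 1.10 TPM (log2 change -3.64, limma adjusted p = 0.00036). Nfe2l1, a factor of proteasome supply, stood at 43.1 ± 2.8 and 54.6 ± 2.0 TPM (adjusted p = 0.019; 0.057 after median-ratio scaling) and Cebpg, a C/EBP partner of ATF4, at 18.1 ± 0.29 and 22.8 ± 1.6 TPM (adjusted p = 0.046; 0.11 after median-ratio scaling). The Cebpg call was also lost without any 1 library (0.13 without control replicate 1, 0.15 without control replicate 2, 0.18 without knockout replicate 1 and 0.072 without knockout replicate 2). Without control replicate 1 or knockout replicate 1 or 2 the Nfe2l1 call was lost (0.083, 0.088 and 0.052).

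Enzymes of serine, one-carbon, proline and transamination metabolism, which use or extend the products of Phgdh and Psat1, rose in part. Of 15 tested of 16 listed, 9 rose, 0 fell and 6 did not pass, beside 25.2% of all genes called higher, and the median log2 change was 0.48. The largest rises were in Mthfd1, a cytosolic folate enzyme, from 55.3 ± 1.3 to 121.9 ± 6.3 TPM (2.20-fold), and Shmt1, cytosolic serine hydroxymethyltransferase, from 33.4 ± 3.7 to 71.3 ± 4.6 TPM (2.14-fold). Psph, the last enzyme of serine synthesis, named after its value was seen, stood at 12.7 and 17.9 TPM in control and 28.8 and 29.6 TPM in knockout (log2 change 0.91, adjusted p = 0.0097).

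The cytosolic aminoacyl-tRNA synthetases, which charge amino acids onto tRNA and of which many are ATF4 targets, held the highest share of rises among the 9 pathway lists. Of 20 tested, 17 rose, 0 fell and 3 did not pass (Qars, Sars and Vars, named after their values were seen). The shares of 85% higher and 0% lower stand beside 25.2% and 14.7% of all genes. Their median log2 change was 0.53. After the scaling alternatives 15 to 17 rose and up to 2 fell. Rars, for arginine, rose from 64.0 ± 1.8 to 108 ± 4.8 TPM, and Aars, for alanine, from 71.1 ± 1.2 to 117 ± 3.9 TPM. The summed level of the 20 was 1733 and 1735 TPM in control and 2362 and 2366 TPM in knockout.

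Amino acid transporters were mixed: of 11 tested of 12 listed, 3 rose, 1 fell and 7 did not pass (median log2 change 0.23). The shares of 27.3% higher and 9.1% lower lie near those of all genes (25.2% and 14.7%), and 1 rose without control replicate 1, against 2 without each other library or after each scaling. Slc7a5, the leucine importer LAT1, rose from 43.9 ± 3.2 to 80.2 ± 0.066 TPM, and Slc38a2, the glutamine and alanine importer SNAT2 that amino acid lack induces, fell from 161.7 ± 0.35 to 117.8 ± 0.16 TPM. Slc43a1, another leucine transporter, stood at 7.73 ± 0.15 and 11.1 ± 0.96 TPM, with a call (adjusted p = 0.040) that the scaling alternatives ended (0.054 to 0.071). That call was lost without any 1 library as well (0.12 without control replicate 1, 0.14 without control replicate 2, 0.16 without knockout replicate 1 and 0.076 without knockout replicate 2). Of 7 tested among 9 other stress outputs of ATF4, 2 rose, 2 fell and 3 did not pass (median -0.13), beside the same 25.2% and 14.7%. The falls numbered 0 without knockout replicate 1 and 1 without each other library. Eif4ebp1, a brake on cap-dependent translation, rose from 90.8 ± 4.6 to 122.5 ± 0.44 TPM, and Xpot, the tRNA exporter, from 47.8 ± 3.1 to 64.4 ± 0.36 TPM. Ddit4, an mTORC1 inhibitor, fell from 20.2 ± 2.3 to 12.7 ± 0.52 TPM, and Stc2, a secreted glycoprotein, from 3.27 ± 0.997 to 0.798 ± 0.059 TPM. The Ddit4 call was lost without control replicate 1 (adjusted p = 0.066) or knockout replicate 1 (0.055). The Stc2 call was lost without control replicate 2 (0.079), knockout replicate 1 (0.062) or knockout replicate 2 (0.066).

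Genes of the ER unfolded protein response outside the ATF4 arm also moved, mostly upward. Of 20 tested, 13 rose, 1 fell and 6 had no call (12 to 13 and 2 after the scaling alternatives). These shares, 65% higher and 5% lower, stand beside 25.2% and 14.7% of all genes. Their median log2 change, 0.68, was the highest among the pathway lists. The chaperone genes Sdf2l1 and Creld2 rose, Sdf2l1 from 32.4 ± 0.88 to 78.8 ± 5.8 TPM and Creld2 from 29.5 ± 4.8 to 71.0 ± 0.13 TPM. Dnajb9, an ER co-chaperone that XBP1 induces, fell from 52.6 ± 2.2 to 26.6 ± 2.4 TPM. The summed level of the 20 went from 3698 and 3662 TPM to 6194 and 6106 TPM.

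**Figure D3:**
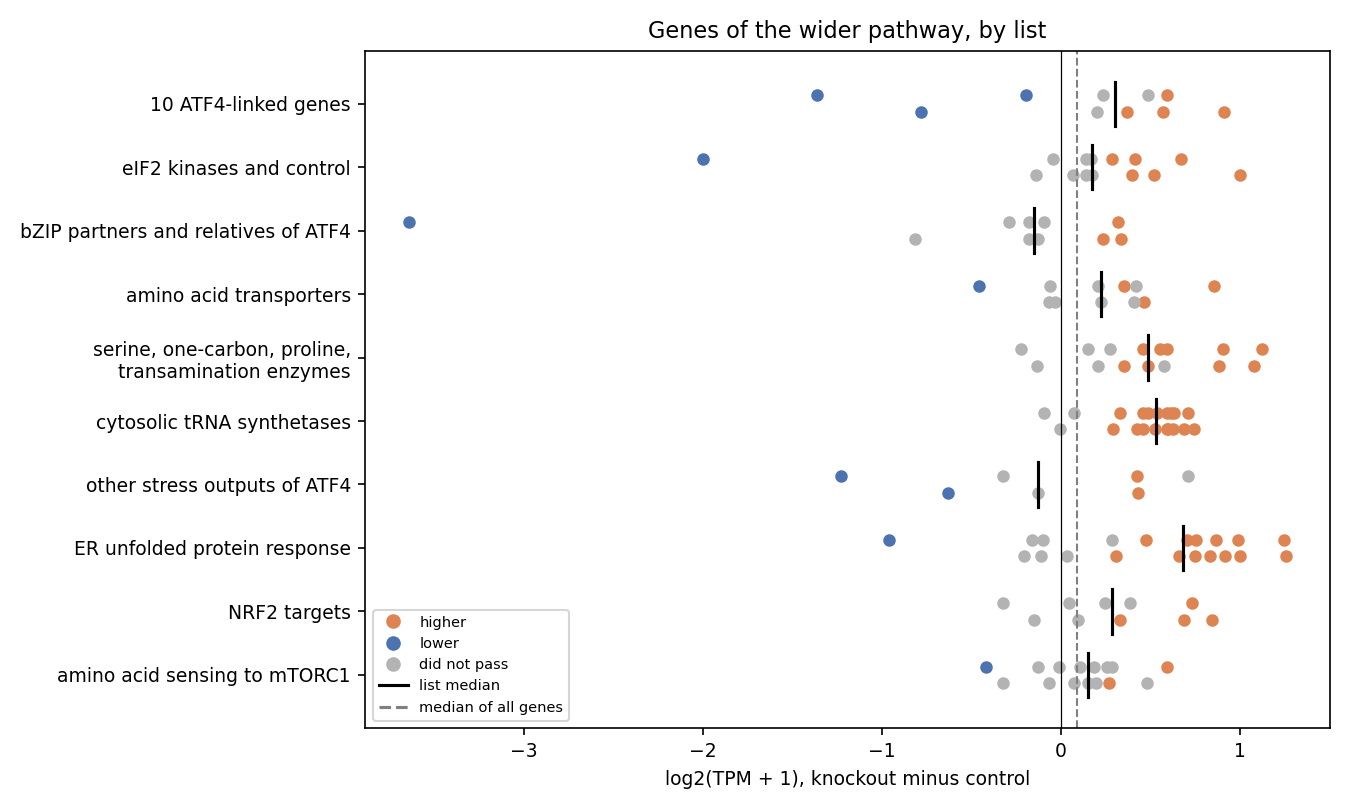
Log2(TPM + 1) in knockout minus control for each tested gene of the 10 and of 9 lists of the wider pathway; black bars are list medians and the dashed line is the median of all genes (0.093). Synthetase genes cluster to the right of 0, with 17 of 20 called higher (25.2% of all genes), while Atf3, Ppp1r15a and Ddit3 lie farthest to the left.

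The ATAC comparison addresses where chromatin near these genes was open in each genotype. Each control list had 32 peaks within 10 kb of a start of the 10 genes, and the knockout lists had 37 and 38, which merged into 38 regions where peaks shared at least 1 base. All 4 lists shared 26 of the 38, beside 71.8% of 34460 regions near tested genes. None was found in both control lists and neither knockout list, beside 3.23%, and 4 were found in both knockout lists and neither control list, beside 4.72%. For each of the other 8, 1 list of a genotype held a peak and its replicate did not. They include regions near Atf4, Chac1, Sesn2 and Psat1 with peaks in both knockout lists and 1 control list. The knockout lists are longer (109380 and 111007 peaks against 103009 and 105227), ATAC depth is unknown from peak lists, and no test between lists was made.

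A region covering the start in the RNA tables was present in all 4 lists for 9 of the 10 genes, beside 80.5% of tested genes. The exception was Atf5, whose nearest region (chr7:44815624-44816503) lies inside the gene and was also in all 4 lists. That region covers the starts of Nup62 and Gm21948 on the other strand, and also the second RefSeq start of Atf5 (chr7:44815658). The fold enrichment over local background is the peak caller's own value. Values of different lists are printed side by side but were not tested against each other, as ATAC depth is unknown. Chac1 had the highest of the 9 start regions, at 22.0 and 22.8 in the control lists and 21.5 and 22.2 in the knockout lists (chr2:119350878-119351417). Ddit3 had the lowest, at 8.09 and 8.42 in control and 8.35 and 8.46 in knockout (chr10:127290287-127290990). Fold enrichment at the start did not order the genes as their RNA did: Chac1 stood at 2.11 to 4.23 TPM and Ddit3 at 29.7 to 84.7 TPM. By −log10 q, the peak caller's significance value, Ddit3 stood above Chac1 in each list. Ddit3 had 204 and 218 in control and 266 and 279 in knockout. Chac1 had 203 and 194 in control and 210 and 231 in knockout.

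The start regions of the genes whose RNA fell were still called in the knockout lists. That of Atf4 (chr15:80254855-80256145) had an enrichment of 16.5 and 15.7 in control and 14.0 and 14.5 in knockout, and that of Trib3 (chr2:152343411-152344238) 15.1 and 13.8 against 15.1 and 13.3. Among genes whose RNA rose, the Asns start region (chr6:7692814-7693442) had 18.9 and 16.2 against 18.3 and 16.8, and that of Psat1 (chr19:15924543-15925330) 14.8 and 16.1 against 14.8 and 16.7. The start region of Sesn2 (chr4:132510305-132510883) had 18.9 and 19.2 against 15.6 and 18.5, and that of Phgdh (chr3:98339780-98340127) 10.8 and 9.03 against 10.1 and 12.7. The printed windows of Asns, Psat1, Trib3, Chac1, Slc7a11 and Ddit3 each overlapped a region in all 4 lists.

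The 4 regions found in both knockout lists alone lay near Asns, Chac1 and Phgdh, 3 of the 10 genes; 13.7% of tested genes had at least 1 such region within 10 kb, and 9.49% had one found in both control lists alone. The one inside the span of Asns, centred 3850 bases past the start (chr6:7689226-7689437), had an enrichment of 5.07 and 5.19 (−log10 q of 9.47 and 9.75). Of the pair at Chac1, the upstream region (chr2:119344884-119345111) had 4.40 and 4.36, with a −log10 q toward the lower end of the lists (4.05 and 4.00). The downstream one (chr2:119359858-119360167) had 6.16 and 4.74 (−log10 q of 17.1 and 10.05). The highest in −log10 q was centred at -8921 bases, upstream of the Phgdh start (chr3:98348758-98349022), at 5.68 and 6.73 (−log10 q of 20.8 and 29.4), next to a region in all 4 lists (chr3:98348076-98348529) with 23.6 and 23.1 in control and 19.7 and 19.8 in knockout. Whether these regions fall in exons or introns was not examined. Of the 3 genes, Asns and Phgdh rose in RNA and Chac1 did not pass.

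**Figure D4:**
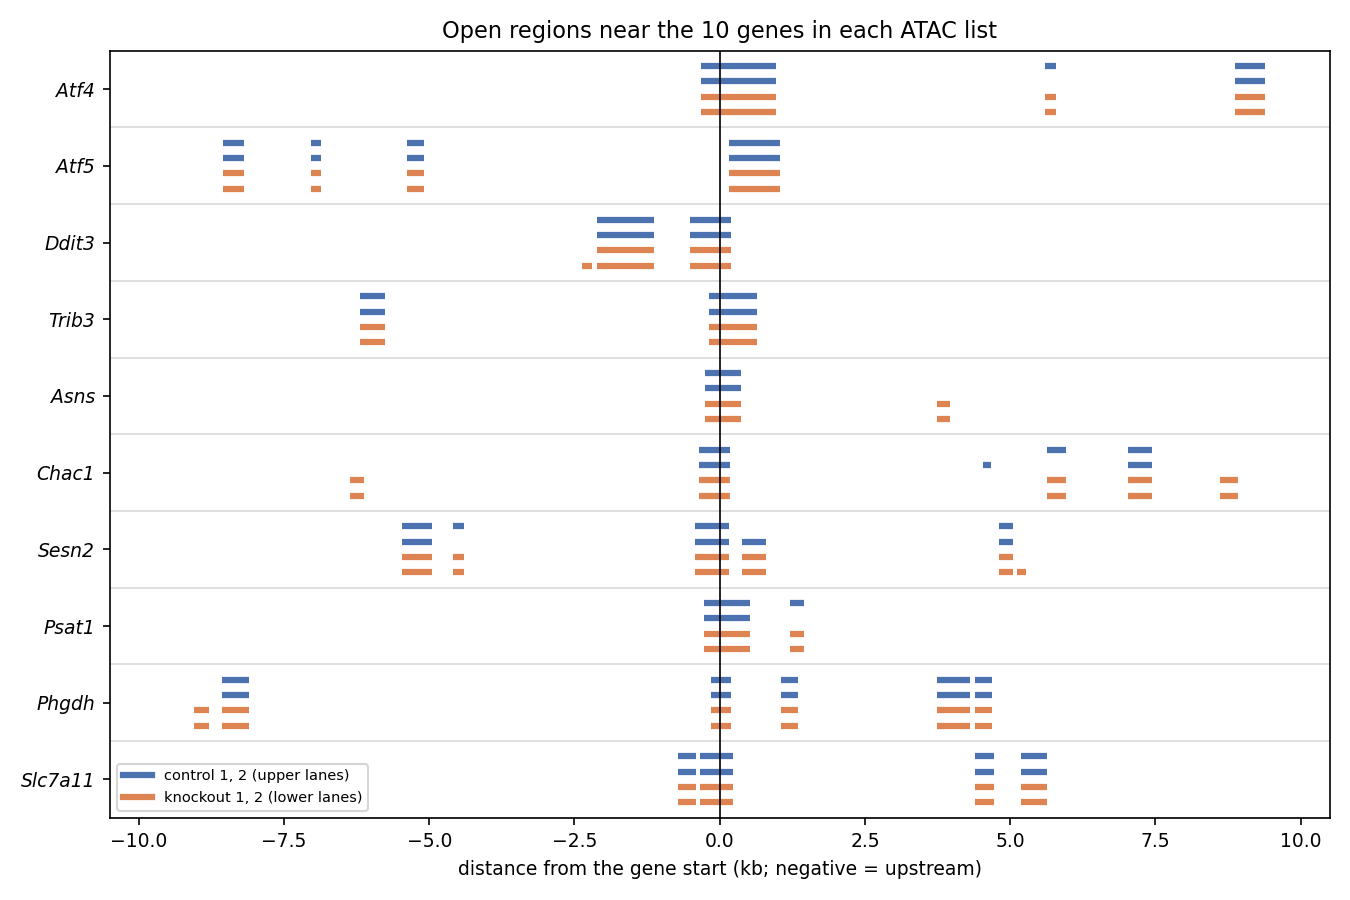
Merged ATAC regions within 10 kb of each start, drawn at their full merged width in the lane of each list that holds a peak there; the x axis is the distance from the start in kb, negative upstream. Starts are those in the RNA tables, and all genes but Atf5 have a region there in all 4 lanes. The nearest Atf5 region covers the gene's second RefSeq start. Near Asns, Chac1 and Phgdh, 4 regions have knockout lanes alone.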

How the data were processed

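HISAT2, StringTie, Bowtie2, MACS2 and build mm10 are named per the submitters' processing notes (versions, strand use and peak thresholds: not given in the sources used here). The deposited TPM column sums to 1000000 per library, per the file headers and values; the authors' FPKM column was an alternative. The deposited coverage signal served to read relative depth, as its commonest ratio to FPKM (2.412 and 2.122 in control, 2.638 and 2.63 in knockout); read counts were not used. Rpph1 made up 19.4% and 19.2% of TPM in control and 15.2% and 15.8% in knockout. The authors' narrowPeak lists give per library a fold enrichment (a ratio) and −log10 p and q; their deposited score column was not used.

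TPM of repeated gene entries was summed. Genotype was tested on log2(TPM + 1) with limma 3.58.1 (trend) in R 4.3.3 on every gene averaging 1 TPM or more, Benjamini-Hochberg adjusted over all; the code was tested on simulated data. Log2 changes on this scale understate low genes. Fold changes of RNA are ratios of mean TPM without the added 1, so for low genes they exceed the log2 change printed beside them. Intervals are limma's 95% intervals. Alternatives were a pseudocount of 0.1, a mean TPM of at least 5, no filter, FPKM, 3 scalings (quantile, median-ratio and without Rpph1), no trend, a replicate block and leaving out each library; for ATAC, a 5 kb window, −log10 q of at least 10, another overlap rule and leaving out each list. Distances of ATAC regions count from gene starts in the RNA tables, and promoter positions from RefSeq starts.

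Members and lists were chosen with earlier results of these data known. Named were the 10 genes, the 4 eIF2 kinases with Ppp1r15a and Ppp1r15b, Tcf7 and Lef1. From each list came up to 2 called genes with the largest rises and up to 2 with the largest falls. Kit, Cd4, Cd44, Dll1, Nup62, Mars and marker genes were read as checks. Other genes are said to be named after their values were seen. Marker lists covered stromal, mast cell, neutrophil and monocyte, T-lineage and adipocyte genes. Of neutrophil and monocyte markers 6 of 10 rose and 0 fell, and of adipocyte markers 7 of 8 rose and 0 fell.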

Additional observations from a re-analysis of the deposited data

How the results depend on the processing

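Of the 10 genes, Ddit3, Psat1, Asns and Phgdh were called in the same direction under all 13 alternatives, Atf5 had no call under any of them, and Chac1 and Slc7a11 had none under the 12 and 11 that tested them. Leaving out 1 RNA library at a time gave 4 to 5 called members (3 to 4 higher, 1 to 2 lower) and 3106 to 3692 called genes (2005 to 2242 higher, 1088 to 1450 lower); fewer libraries were then tested, and the lone library was assumed to vary like the other group. Lower genes made up 36.8% of calls as deposited, 46.8% after quantile normalization, 45.7% without Rpph1 and 50.6% after median-ratio scaling. Uncalled log2 changes that turned sign ran, with 1 library left out, from -0.17 (without knockout replicate 1) to 0.64 for Atf5, from -0.0074 (without knockout replicate 2) to 0.29 for Eif2ak2 and from -0.081 (without control replicate 2) to 0.26 for Lef1; Eif2ak3 was at -0.032 after median-ratio scaling. Of 412 values of the 32 other named genes, 41 lost a call and 368 kept their side of the threshold and direction. Replicate numbers are not stated to mark a shared origin, and same-numbered deviations had a correlation of 0.004 across genes; with a replicate block 3072 genes were higher and 1798 lower, the 7 called members among them, and the calls of Cebpg (adjusted p = 0.065), Slc43a1 (0.059) and Rraga (0.071) were lost. Within 5 kb, 24 regions remained, 1 of them in knockout lists alone. Leaving out 1 ATAC list gave 36 to 38 regions, of which 26 to 30 were in all lists. Of these regions 0 to 1 were in control alone and 4 to 8 in knockout alone, since fewer lists then had to hold or to lack a peak. The 1 in control alone, near Chac1, came without control replicate 1 and had a peak in control replicate 2 only. RNA counting error and ATAC depth are unknown.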

Other observations

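Slc7a11 is shared by ATF4 and NRF2, the factor of the oxidative stress response, so NRF2 targets were read as well. Of 10 tested, 4 rose, 0 fell and 6 had no call, with a median log2 change of 0.29. Beside these 40% higher and 0% lower, 25.2% and 14.7% of all genes were called. Gsr, glutathione reductase, rose from 53.8 ± 3.9 to 97.3 ± 2.8 TPM (SD, n = 2), and G6pdx, which supplies its NADPH, from 50.7 ± 2.8 to 85.1 ± 7.9 TPM. Among targets looked up afterwards, the quinone reductase gene Nqo1 stood at 5.36 and 3.80 TPM in control and 4.75 and 5.08 TPM in knockout, and Hmox1, haem oxygenase, at 25.1 and 25.7 TPM against 25.1 and 20.7 TPM, both without a call.

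Of 15 genes that carry amino acid signals to mTORC1, the growth kinase complex that Sesn2 restrains, 2 rose, 1 fell and 12 did not pass. Their median log2 change was 0.15. The shares of 13.3% higher and 6.7% lower, of only 15 genes, stand beside 25.2% and 14.7% of all genes. With 1 library left out 1 rose, and 0 fell without control replicate 1 or 2. Sesn1, a p53-linked relative of Sesn2, fell from 55.7 ± 0.89 to 41.5 ± 3.6 TPM (limma adjusted p = 0.012), the direction opposite to Sesn2; the call was lost without control replicate 1 (0.072) or control replicate 2 (0.062). Sec13, a subunit of GATOR2 and of the COPII coat, rose from 77.1 ± 9.0 to 116.6 ± 5.3 TPM. Rraga, a Rag GTPase, stood at 36.1 ± 2.0 and 43.7 ± 2.1 TPM, with a call (adjusted p = 0.042) that 10 alternatives ended, the 3 scalings and the omission of any 1 library among them (0.066 to 0.16).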
